A study of Mus musculus with 36 samples.

Results

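Signals of 30 genes of the tricarboxylic acid (TCA) cycle, the pyruvate dehydrogenase complex and the enzymes that feed and drain the cycle were followed in 2 mouse skeletal muscles lacking estrogen-related receptors (ERRs). The 30 genes were a list of symbols drawn up by function, with earlier results of these data known, out of 17873 genes with a value and 13404 kept for testing. All 30 had a value in all 36 libraries and all 30 passed the filter on low values. By role they were 5 subunits of pyruvate dehydrogenase, 11 genes of the cycle itself, 4 NADP-linked or anaplerotic enzymes, 4 enzymes of the malate-aspartate shuttle and glutamate metabolism, 4 cytosolic counterparts and 2 enzymes that clear side products. The products of 24 act in mitochondria and those of 6 (Mdh1, Got1, Idh1, Aco1, Me1 and Acly) in the cytosol.

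RNA came from soleus, a muscle rich in slow oxidative fibres, and from extensor digitorum longus (EDL), rich in fast fibres. Per the labels' protocols, all mice were males of 1 year of age, backcrossed to C57BL/6JBom, and carried floxed ERR alleles. In the knockout mice a Cre recombinase driven by the human alpha-skeletal actin promoter, active in muscle fibres, deleted the floxed genes, so the other cell types of a muscle keep them. There were 3 classes in each muscle, with 3 knockout and 3 wild-type (WT) littermate libraries apiece: ERRalpha mKO against its WT, ERRbeta-ERRgamma dmKO (ERRbeta and ERRgamma together) against its WT, and ERRalpha-ERRgamma dmKO (ERRalpha and ERRgamma together) against its WT. The 12 groups of 3 came from 22 animals, 14 of which gave both muscles. Every animal of the ERRalpha and ERRbeta-ERRgamma classes gave both. In the ERRalpha-ERRgamma class only 1 WT animal and 1 dmKO animal did. Which columns are knockout was read from a mark in the column names, taken as floxed with Cre or floxed without it, and the sign of each difference below depends on that reading.

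The receptor genes do not settle that reading, because the deposited signal is 1 number per gene and the deleted exon is not given in the sources used here. Esrra, which encodes ERRalpha, was lower in ERRalpha-ERRgamma dmKO than in WT, with differences of -2.23 ± 0.12 in EDL (SE; limma, adjusted p = 3.55e-15) and -0.57 ± 0.12 in soleus (adjusted p = 0.00084). In the ERRalpha class it differed by -0.19 in EDL and 0.33 in soleus (adjusted p = 0.482 and 0.224). Esrrg, which encodes ERRgamma, was higher in knockouts than in WT in both muscles of the ERRalpha-ERRgamma class, in soleus of the ERRbeta-ERRgamma class and in EDL of the ERRalpha class, with differences of 0.51 to 1.21. Esrrb, which encodes ERRbeta, was called in EDL of the ERRalpha-ERRgamma class only, at -1.60 (adjusted p = 9.67e-07). The muscle labels held against fibre markers. All 8 slow-fibre genes were higher and all 10 fast-fibre genes lower in WT soleus than in WT EDL. Each library had a value for 13667 to 14951 genes. The read totals are lost to the quantile step, and the depth behind each value is unknown.

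Pyruvate dehydrogenase turns pyruvate into acetyl-CoA inside mitochondria, citrate synthase joins it to oxaloacetate, and the turns of the cycle that follow yield the NADH and FADH2 that feed the respiratory chain. Anaplerotic enzymes refill the cycle's intermediates, and paired mitochondrial and cytosolic isoforms move reducing equivalents and carbon across the inner membrane. ERRs are orphan nuclear receptors known to bind a core motif, AAGGTCA, and to drive genes of oxidative metabolism in muscle and heart.

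That motif was looked for in the promoters of the list, and a few windows are shown so that its presence or absence can be seen beside the changes given later. Windows ran from 250 bases before to 50 after each annotated start (RefSeq, GRCm38.p6), and 28 of the 30 genes matched by symbol, Idh3a and Me2 being the exceptions. AAGGTCA, read on both strands, was in a window of 2 of 28 genes (7.14%), against 5.38% of all 27025 genes in the table. The longer ERR form TNAAGGTCA, which contains it, was in 0 of 28, against 1.43% of all genes. CCGGAAGT, the motif of ETS factors, was in 1 of 28 (3.57%, Dlst) against 4.31%, and GCGCANGCG, that of NRF1, in 3 of 28 (10.7%; Dld, Ogdh and Sucla2) against 7.03%. These last 2 motifs were added after the first counts were seen. Clybl and Idh3b are printed as the genes with the largest changes between EDL ERRalpha-ERRgamma dmKO and WT, Acly as a gene with no called change there, and Got1 and Ogdh as the 2 that hold the motif, which is in capitals (AAGGTCA on the gene's strand in Got1, starting 245 bases before the start, and TGACCTT, its reverse complement, in Ogdh, starting 5 bases before one of its annotated starts). Each runs 5′ to 3′ on the strand of its gene.
Clybl, chr14:122181444-122181743, plus strand: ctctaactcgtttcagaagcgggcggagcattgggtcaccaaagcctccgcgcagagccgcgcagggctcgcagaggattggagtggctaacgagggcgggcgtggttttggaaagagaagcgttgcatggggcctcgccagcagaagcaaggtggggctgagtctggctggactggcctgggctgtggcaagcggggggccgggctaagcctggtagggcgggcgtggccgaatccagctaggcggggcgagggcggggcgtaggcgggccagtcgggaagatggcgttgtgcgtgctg
Idh3b, chr2:130284402-130284701, minus strand: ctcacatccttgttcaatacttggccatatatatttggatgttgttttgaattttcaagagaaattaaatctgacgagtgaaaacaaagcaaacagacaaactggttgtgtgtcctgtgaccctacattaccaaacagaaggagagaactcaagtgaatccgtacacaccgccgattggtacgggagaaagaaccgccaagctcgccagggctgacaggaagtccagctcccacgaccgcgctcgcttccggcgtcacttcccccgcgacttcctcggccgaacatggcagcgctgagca
Acly, chr11:100527951-100528250, minus strand: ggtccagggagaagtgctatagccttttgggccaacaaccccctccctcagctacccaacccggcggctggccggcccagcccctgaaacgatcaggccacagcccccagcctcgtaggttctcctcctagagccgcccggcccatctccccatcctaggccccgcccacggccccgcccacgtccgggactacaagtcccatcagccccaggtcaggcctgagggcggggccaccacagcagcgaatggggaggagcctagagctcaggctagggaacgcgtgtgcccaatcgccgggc
Got1, chr19:43524556-43524855, minus strand: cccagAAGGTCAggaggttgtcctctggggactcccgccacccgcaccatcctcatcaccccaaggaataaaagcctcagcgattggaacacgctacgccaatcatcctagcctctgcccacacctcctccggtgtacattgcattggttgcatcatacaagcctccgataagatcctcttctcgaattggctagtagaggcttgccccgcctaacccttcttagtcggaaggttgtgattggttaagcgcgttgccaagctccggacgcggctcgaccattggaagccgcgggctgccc
Ogdh, chr11:6291920-6292219, plus strand: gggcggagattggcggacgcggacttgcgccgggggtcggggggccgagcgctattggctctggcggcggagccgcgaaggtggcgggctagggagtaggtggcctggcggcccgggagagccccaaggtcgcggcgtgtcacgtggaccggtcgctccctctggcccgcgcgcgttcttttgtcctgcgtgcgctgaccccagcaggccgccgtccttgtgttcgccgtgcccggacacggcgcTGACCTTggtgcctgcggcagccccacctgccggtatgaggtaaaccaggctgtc
A match is a run of letters and says nothing on whether a receptor binds there, and windows of this length leave out enhancers and first introns.

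Loss of both ERRalpha and ERRgamma lowered most of the list in EDL. With values in log2 signal and a gene called at an adjusted p under 0.05 (limma, all 13404 kept genes), 24 of the 30 genes were lower and none higher in EDL ERRalpha-ERRgamma dmKO than in WT, where 18.1% of all genes tested were called. The median difference was -1.24 over the list and 0.12 over all genes tested. All 5 pyruvate dehydrogenase genes, all 11 cycle genes and all 4 shuttle and glutamate genes fell, with medians of -1.33, -1.16 and -1.77. Of the cytosolic counterparts 1 of 4 fell, with a median of -0.17. Mdh1 and Got1, whose products are cytosolic too, are counted with the shuttle genes and fell. The signal is from whole muscle, in which fewer cells of a type and less RNA per cell cannot be told apart.

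In the pyruvate dehydrogenase complex, Dlat, the E2 acetyltransferase core (chromosome 9, 50634633 to 50659780, minus strand, GRCm38), moved most. Its signal was 3.62, 3.63 and 3.73 in the EDL dmKO libraries, against 5.47, 5.79 and 5.69 in their WT libraries, a difference of -1.99 ± 0.080 (SE, n = 3 each; limma, adjusted p = 1.86e-17), or 0.252 of the WT level. The groups lay far apart, with less spread among the dmKO libraries than among the WT ones. Pdha1, the E1 alpha subunit that carries the regulatory phosphorylation sites, was 6.40, 6.27 and 6.51 in dmKO against 7.85, 8.11 and 8.02 in WT. It fell by 1.60. Pdhb, the E1 beta subunit, Pdhx, the E3-binding protein, and Dld, the E3 dehydrogenase shared with the 2-oxoglutarate dehydrogenase complex, fell by 1.33, 1.32 and 1.32.

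Among the genes of the cycle, Idh3b, the beta subunit of NAD-dependent isocitrate dehydrogenase (chromosome 2, 130279309 to 130284547, minus strand), fell most. It was 6.16, 6.02 and 6.16 in EDL dmKO libraries and 7.997, 8.183 and 8.187 in WT libraries, a difference of -2.01 ± 0.067 (SE, n = 3 each; limma, adjusted p = 3.46e-19). Its catalytic partner Idh3a fell less, by 1.06 ± 0.096, and the gamma subunit gene Idh3g by 1.37 ± 0.074, so the 3 subunit genes of 1 enzyme did not share a size of change. Fh1, fumarase, fell by 1.76. Dlst, the succinyltransferase core of the 2-oxoglutarate dehydrogenase complex, fell by 1.68 and Ogdh, its E1 subunit, by 1.15. Mdh2, mitochondrial malate dehydrogenase, fell by 1.48, and Suclg1, the succinyl-CoA ligase subunit common to both nucleotide forms, by 1.16. The smallest falls of this role were in Sucla2 (by 0.81), Suclg2 (by 0.90) and Cs, citrate synthase (by 0.91). Cs was 7.0, 6.85 and 7.0 in dmKO against 7.73, 7.96 and 7.91 in WT, still with no overlap.

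The shuttle genes fell whether their product is mitochondrial or cytosolic. Got2, mitochondrial aspartate aminotransferase, was 5.53, 5.41 and 5.71 in EDL dmKO against 7.35, 7.63 and 7.51 in WT, a difference of -1.94 ± 0.097 (SE, n = 3 each; limma, adjusted p = 1.51e-15). Mdh1, cytosolic malate dehydrogenase (chromosome 11, 21556787 to 21572367, minus strand), was 6.40, 6.22 and 6.53 in dmKO against 8.04, 8.42 and 8.36 in WT, a difference of -1.89 ± 0.097 (adjusted p = 2.88e-15). Got1, the cytosolic aminotransferase, was 5.88, 5.87 and 6.06 in dmKO against 7.50, 7.72 and 7.54 in WT, a difference of -1.65 ± 0.11 (adjusted p = 1.28e-12). None of these 3 genes had overlapping groups. Glud1, glutamate dehydrogenase, fell by 0.73 ± 0.076.

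The NADP-linked and anaplerotic enzymes were divided. Idh2, mitochondrial NADP-dependent isocitrate dehydrogenase (chromosome 7, 80094846 to 80115392, minus strand), was 4.08, 3.67 and 4.07 in EDL dmKO against 5.17, 6.04 and 5.98 in WT. It fell by 1.79 ± 0.20 (SE, n = 3 each; limma, adjusted p = 4.35e-08). Me3, mitochondrial NADP-dependent malic enzyme (chromosome 7, 89632392 to 89854359, plus strand), was 1.44, 1.26 and 1.23 in dmKO against 2.28, 2.49 and 2.41 in WT and fell by 1.08 ± 0.13. Pcx, pyruvate carboxylase, was 2.93, 2.62 and 2.56 in dmKO against 2.90, 2.64 and 3.13 in WT, groups that overlap (difference -0.19, adjusted p = 0.516). Me2, the malic enzyme that uses NAD, was -1.64, -0.98 and -0.22 in dmKO against -1.72, -1.57 and -1.33 in WT, with a wide dmKO spread (difference 0.59, adjusted p = 0.154). Without dmKO replicate 1 it was called higher (0.94; limma, adjusted p = 0.0228).

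Of the cytosolic counterparts only Aco1 fell in EDL, by 0.50 ± 0.13 (limma, adjusted p = 0.00799). It encodes cytosolic aconitase, also an iron-regulatory protein, and was 1.45, 1.15 and 1.39 in dmKO against 1.82, 1.78 and 1.90 in WT. Without dmKO replicate 2 its difference was -0.41 and the call was lost (adjusted p = 0.0611). Idh1 was 2.88, 2.71 and 2.82 in dmKO against 2.64, 3.12 and 3.28 in WT. Acly, which cleaves exported citrate for lipid synthesis, was 1.503, 1.21 and 1.708 in dmKO against 1.12, 1.74 and 1.92 in WT. In both genes the groups overlap, and neither was called (adjusted p = 0.416 for Idh1 and 0.711 for Acly). Me1, the cytosolic malic enzyme, was 6.26, 6.28 and 6.09 in dmKO against 6.13, 5.62 and 6.03 in WT, a difference of 0.28 ± 0.14 (adjusted p = 0.174).

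The gene that moved most of all 30 was Clybl (chromosome 14, 122181704 to 122402234, plus strand), whose mitochondrial enzyme cleaves citramalyl-CoA, a product of itaconate breakdown. Its signal was 1.19, 0.83 and 1.86 in EDL dmKO against 3.90, 4.05 and 3.56 in WT, a difference of -2.54 ± 0.21 (SE, n = 3 each; limma, adjusted p = 8.39e-11), or 0.171 of the WT level. The highest dmKO library lies well under the lowest WT library. D2hgdh, which oxidizes D-2-hydroxyglutarate, was 1.76, 1.42 and 1.72 in dmKO against 1.81, 1.86 and 1.78 in WT and was not called.

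**Figure D1:**
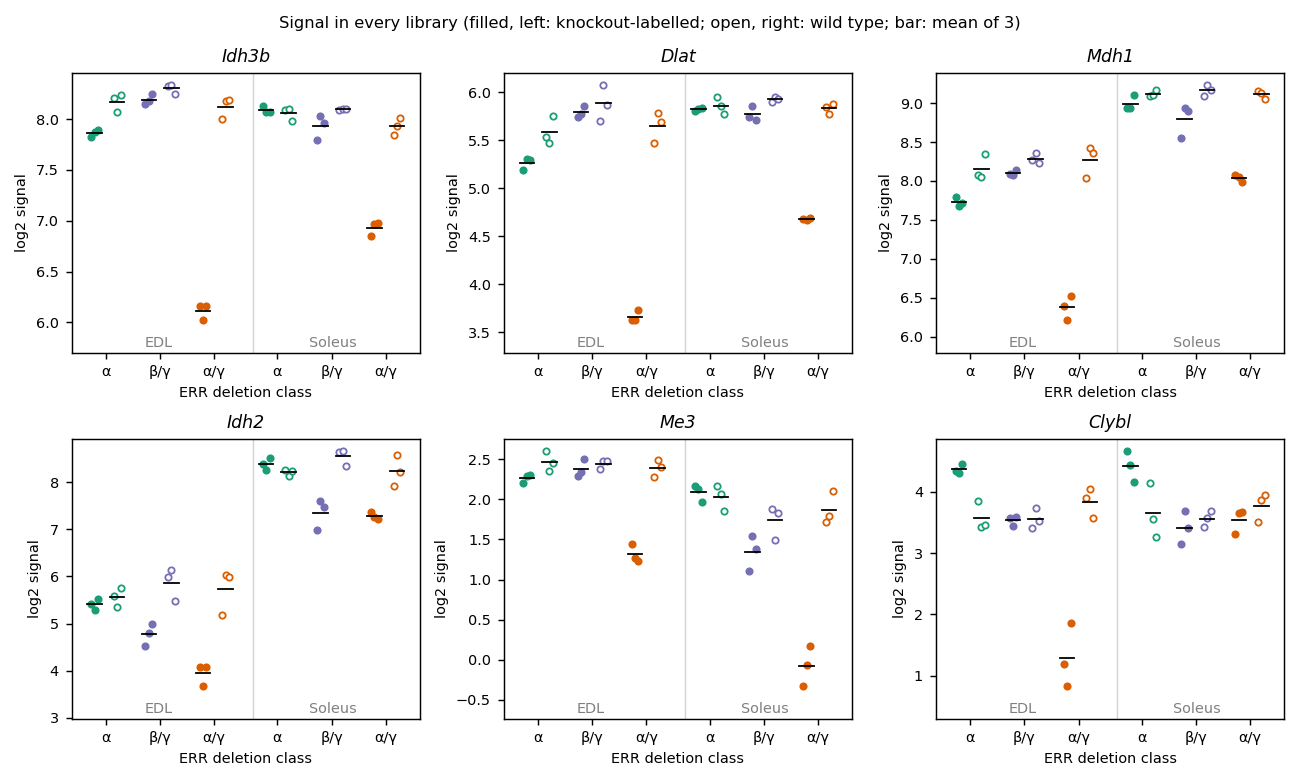
Log2 signal (vertical axis) of Idh3b, Dlat, Mdh1, Idh2, Me3 and Clybl in every library of the 12 groups, 1 point per library, knockout libraries filled and to the left of their open WT libraries, with the group mean as a bar. Clybl in EDL ERRalpha-ERRgamma dmKO reaches 0.83 to 1.86, against 3.56 to 4.05 in its WT libraries, while in soleus the 2 groups of that class overlap.

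In soleus the same double deletion also lowered most of the list, by less. Of the 30 genes, 24 were lower and none higher in soleus ERRalpha-ERRgamma dmKO than in WT, where 12.7% of all genes tested were called. The median difference was -0.57 over the list and 0.11 over all genes tested. The falls covered all 5 pyruvate dehydrogenase genes (median -0.64), all 11 cycle genes (median -0.72) and all 4 shuttle and glutamate genes (median -0.43). Between muscles 23 genes were shared, 95.8% of either set of 24, with Clybl called in EDL alone and D2hgdh in soleus alone.

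Me3 led the change in soleus. It was -0.33, -0.07 and 0.16 in dmKO against 1.72, 1.80 and 2.10 in WT, a difference of -1.95 ± 0.13 (SE, n = 3 each; limma, adjusted p = 1.07e-11), or 0.258 of the WT level. The highest dmKO library was far below the lowest WT library. Dlst was 5.32, 5.15 and 5.32 in dmKO against 6.45, 6.49 and 6.49 in WT and fell by 1.22 ± 0.089. Dlat was 4.68, 4.66 and 4.69 in dmKO against 5.85, 5.77 and 5.88 in WT and fell by 1.16 ± 0.080. Mdh1 was 8.07, 8.04 and 7.98 in dmKO against 9.15, 9.13 and 9.06 in WT and fell by 1.08 ± 0.097. In Dlst, Dlat and Mdh1 the 3 libraries of a group lay close together and the groups did not overlap.

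The other soleus falls were between 0.36 (Glud1) and 0.99 (Idh3b). Idh2 was 7.37, 7.27 and 7.22 in soleus dmKO against 7.92, 8.59 and 8.23 in WT and fell by 0.96 ± 0.20 (SE, n = 3 each; limma, adjusted p = 0.000985). Got2 was 7.60, 7.42 and 7.26 in dmKO against 7.74, 7.93 and 7.92 in WT and Got1 was 7.26, 7.16 and 7.21 against 7.45, 7.69 and 7.75. These aminotransferase genes fell by 0.44 and 0.42, and Got1 lost its call without soleus WT replicate 3 (-0.37, adjusted p = 0.061). D2hgdh was 0.83, 0.90 and 1.07 in dmKO against 1.31, 1.87 and 1.26 in WT and fell by 0.55 (adjusted p = 0.0311), and Aco1 fell by 0.42 (adjusted p = 0.0353). Both calls are lost when single libraries are left out, in 3 of 6 cases for D2hgdh and 4 of 6 for Aco1. Me1, Acly, Me2, Pcx, Idh1 and Clybl were not called, and for Me1 the difference was 0.00 ± 0.14 (95% confidence interval -0.28 to 0.28).

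**Figure D2:**
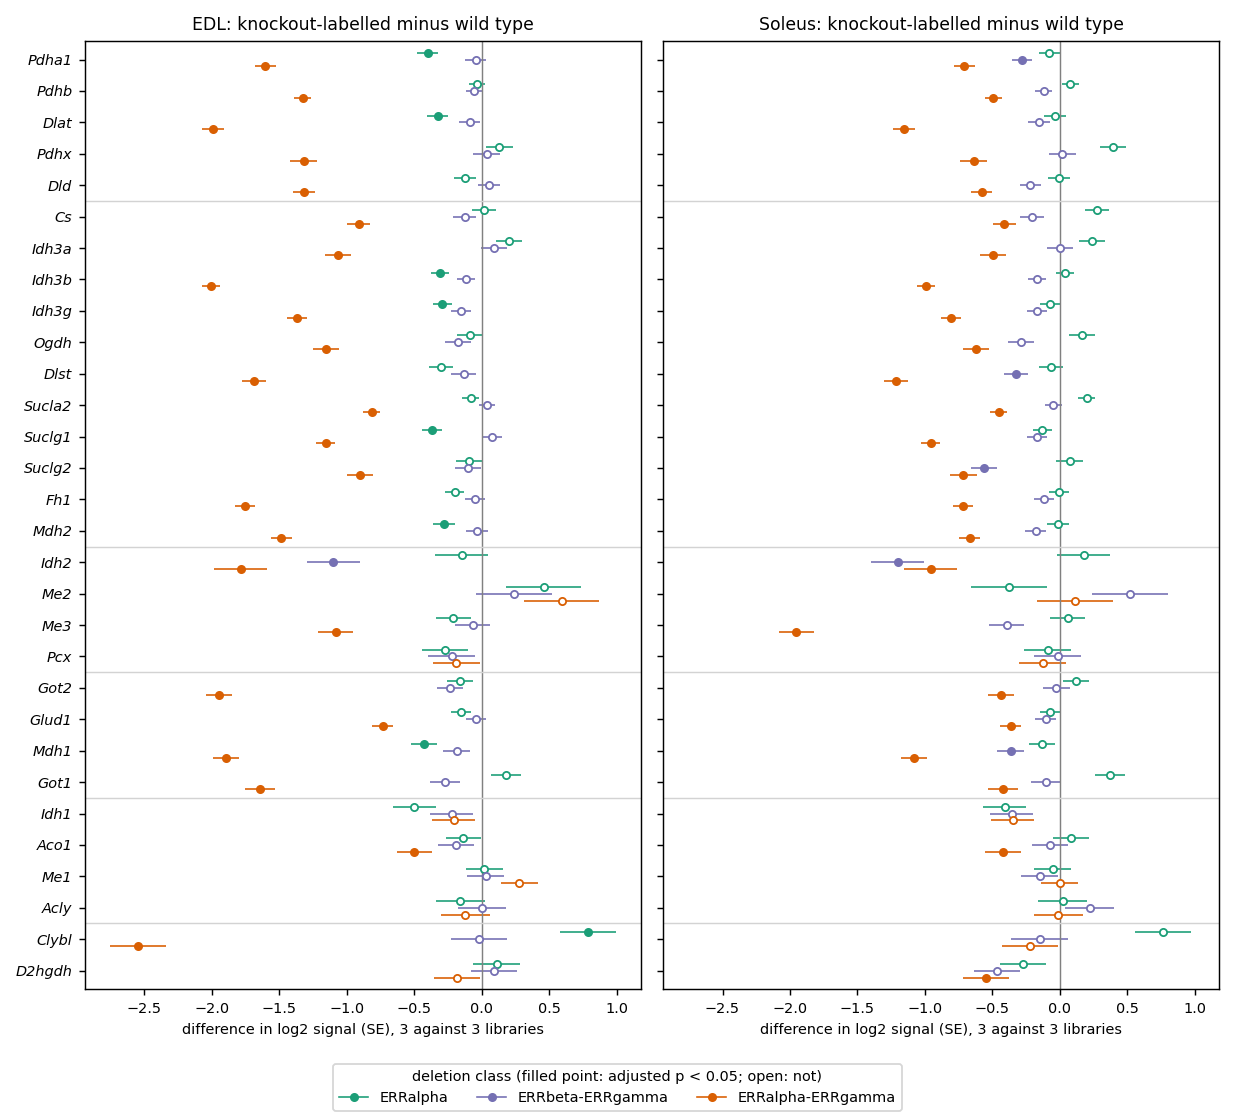
Difference in log2 signal, knockout minus WT (horizontal axis, bars 1 SE, 3 against 3 libraries), for all 30 genes ordered by role, EDL in the left panel and soleus in the right, coloured by class and filled where called. Each panel has 24 filled ERRalpha-ERRgamma points, all below 0, and no ERRalpha point is filled in soleus.

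Markers of fibres and of other cell types also differed between these groups, and their part in the changes was not tested. In the EDL comparison of ERRalpha-ERRgamma dmKO with WT the summed linear signal of the 8 slow-fibre markers was 102 to 238 in dmKO and 50.2 to 152 in WT, and 6 of the 8 were called higher. That of the 10 fast-fibre markers was 35500 to 35900 in dmKO and 33300 to 35000 in WT, with none called. That of the 8 endothelial markers was 53.6 to 71.9 in dmKO and 69.0 to 88.4 in WT, with 3 called lower, and that of the 8 fibroblast markers 310 to 413 in dmKO and 235 to 326 in WT, with none called. In soleus, leukocyte sums were 69.6 to 85.0 in dmKO and 37.5 to 57.6 in WT (0 of 7 called), endothelial sums 82.0 to 95.5 in dmKO and 102 to 104 in WT (1 of 8 called lower) and fibroblast sums 482 to 592 in dmKO and 247 to 509 in WT (0 of 8 called). Fast-fibre sums were 15100 to 18800 in dmKO and 13900 to 16700 in WT there, with 2 of 10 called higher and 1 lower. The leukocyte and endothelial groups did not overlap there, nor did the fast-fibre groups in EDL. Sums over 6 general skeletal muscle genes were 18100 to 18300 in dmKO and 18300 to 20500 in WT in EDL. In soleus they were 21200 to 22100 in dmKO and 23500 to 24100 in WT, also without overlap. Beside these marker calls, 18.1% of all genes tested were called in EDL and 12.7% in soleus.

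Single libraries of the class stood apart in other lists. In soleus the fat-cell sum was 173 in WT replicate 1, against 13.3 and 14.9 in the other WT libraries. The Schwann-cell sum was 142 in soleus WT replicate 3, and the red blood cell sum was 3930 in soleus WT replicate 2, 4330 in EDL WT replicate 2 and 2410 in EDL dmKO replicate 3. Without any 1 library of the 2 groups compared, 22 to 24 of the 30 genes were called in soleus and 23 to 25 in EDL. The 25 in EDL, reached without dmKO replicate 1, include a rise, that of Me2. None of the 7 fat-cell markers tested was called in any of the 6 comparisons.

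The fall differed between muscles for most of the list. The difference of differences (soleus change minus EDL change in the ERRalpha-ERRgamma class) was called for 19 of the 30 genes, 18 higher and 1 lower, against 2.07% of all genes tested. A higher value means a smaller fall in soleus. The 2 muscles of this class came mostly from different animals. The median was 0.55 over the list and -0.00 over all genes tested. All 5 pyruvate dehydrogenase genes, 9 of 11 cycle genes and 3 of 4 shuttle genes were among the 18. Clybl differed most, by 2.32 ± 0.29 (SE; limma, adjusted p = 4.97e-06), with changes of -0.22 in soleus and -2.54 in EDL. Got2 differed by 1.51 ± 0.14 (adjusted p = 2.95e-08), Got1 by 1.22 ± 0.16, Fh1 by 1.04 ± 0.10 and Idh3b by 1.01 ± 0.094.

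Me3 went the other way. Its change was -1.95 in soleus and -1.08 in EDL, a difference of -0.87 ± 0.18 (SE; limma, adjusted p = 0.00585). With a pseudocount of 1 the difference was -0.41 (adjusted p = 0.126), and with only the libraries compared in the fit its adjusted p was 0.0646. Suclg1, Suclg2, Glud1, Idh2 and Aco1 fell in both muscles without a called difference between them. For Idh2 the difference of 0.83 ± 0.28 (adjusted p = 0.161) was called in 1 refit, without EDL WT replicate 1 (1.11, adjusted p = 0.0144). So was that for Glud1 without the same library (0.47, adjusted p = 0.00794). Of the 18 genes with a smaller fall in soleus, Dlst lost its call in 10 of 12 refits without 1 library, Ogdh in 8, Sucla2 in 7, and Cs and Idh3a in 5 each.

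**Figure D3:**
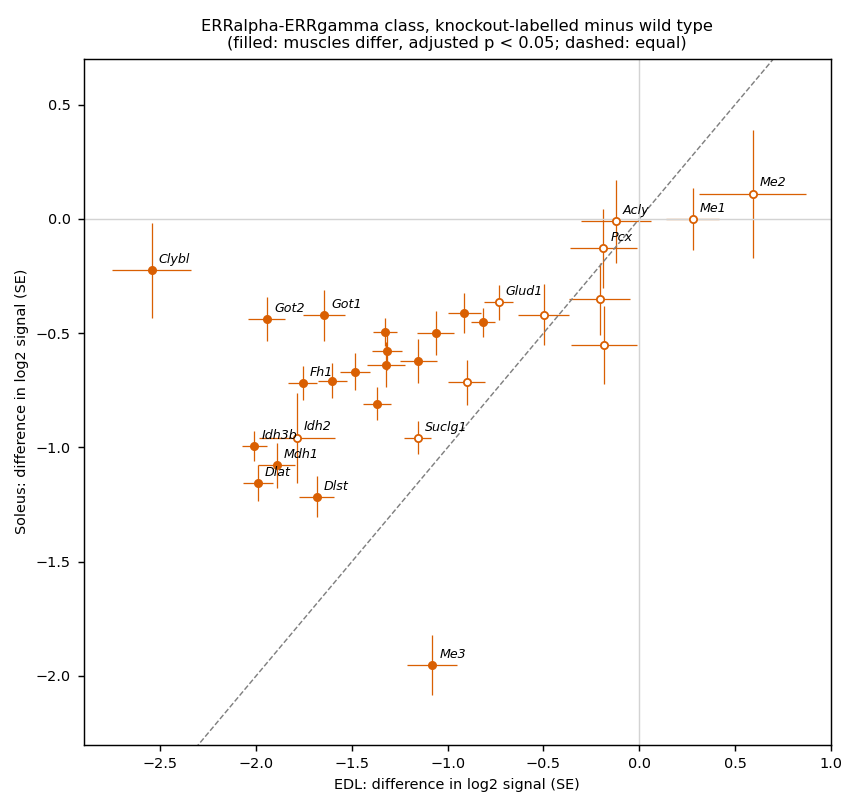
Change in log2 signal in ERRalpha-ERRgamma dmKO against WT, soleus on the vertical axis and EDL on the horizontal axis, 1 point per gene, filled where the difference between muscles was called; the dashed line marks equal changes. Most points lie above the line, and Me3, at -1.95 in soleus and -1.08 in EDL, is the filled point below it.

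For many of the 30 genes the fall in the ERRalpha-ERRgamma class was larger than the change in the other classes. In EDL the change was called lower in the ERRalpha-ERRgamma class than in the ERRalpha class for 23 of 30 genes (4.81% of all genes tested were called; median over the list -1.14) and lower than in the ERRbeta-ERRgamma class for 22 of 30 (6.87%; median -1.18). In soleus the counts were 22 of 30 against the ERRalpha class (4.75%; median -0.70) and 13 of 30 against the ERRbeta-ERRgamma class (1.2%; median -0.39). These comparisons reuse the ERRalpha-ERRgamma libraries, so their counts are not independent of each other. Animal numbers of the ERRalpha-ERRgamma class all lie below those of the other classes, so class and animal series cannot be told apart. WT endothelial sums were 69.0 to 88.4 in EDL of that class, against 51.2 to 60.2 in ERRalpha and 50.4 to 56.8 in ERRbeta-ERRgamma. In soleus they were 102 to 104, against 64.0 to 71.8 and 56.4 to 61.3. Sums of general skeletal muscle genes overlapped between the classes' WT libraries. The part of these baselines was not tested.

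Named genes show where the classes parted. In EDL, Clybl differed between the ERRalpha-ERRgamma and ERRalpha classes by -3.33 ± 0.29 (SE; limma, adjusted p = 1.96e-09), with a fall of 2.54 in the double deletion and a rise in the single one. In soleus, Me3 differed by -2.01 ± 0.18 from the ERRalpha class and by -1.56 ± 0.18 from the ERRbeta-ERRgamma class (adjusted p = 9.02e-08 and 9.2e-06). For Idh2 no difference from the ERRbeta-ERRgamma class was called, with 0.24 ± 0.28 in soleus (95% confidence interval -0.33 to 0.82) and -0.69 ± 0.28 in EDL (adjusted p = 0.165). Its differences from the ERRalpha class were called, at -1.64 ± 0.28 in EDL and -1.13 ± 0.28 in soleus (adjusted p = 0.000168 and 0.0132). These depend on single libraries: without EDL ERRalpha-ERRgamma WT replicate 1 the EDL difference from the ERRbeta-ERRgamma class was -0.97 and called (adjusted p = 0.0175), and without soleus ERRalpha-ERRgamma WT replicate 2 the soleus difference from the ERRalpha class was not (-0.96, adjusted p = 0.0559).

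Deletion of ERRalpha alone gave small changes in EDL. There 7 genes were lower and 1 higher in mKO than in WT, against 3.28% of all genes tested, with a median of -0.15 over the list and 0.02 over all genes. Pdha1 was 7.83, 7.84 and 7.81 in mKO against 8.27, 8.24 and 8.18 in WT, a difference of -0.40 ± 0.076 (SE, n = 3 each; limma, adjusted p = 0.00215). Suclg1 was 7.04, 7.01 and 7.03 in mKO against 7.36, 7.36 and 7.47 in WT and fell by 0.37. Mdh1 was 7.80, 7.68 and 7.72 in mKO against 8.08, 8.05 and 8.34 in WT and fell by 0.43. In these 3 genes no mKO library reached the lowest WT library. Dlat, Idh3b, Idh3g and Mdh2 fell by 0.33, 0.31, 0.29 and 0.28. All 7 also fell in EDL ERRalpha-ERRgamma dmKO, where they make up 29.2% of the 24 lower genes. Marker sums differed in this comparison too, with a part that was not tested: red blood cell sums were 126 to 186 in mKO and 302 to 365 in WT, slow-fibre sums 70.5 to 133 in mKO and 32.9 to 73.9 in WT (1 of 8 called higher), and endothelial sums 44.9 to 53.0 in mKO and 51.2 to 60.2 in WT. No red blood cell or endothelial marker was called.

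Clybl was the gene that rose. It was 4.34, 4.31 and 4.45 in EDL mKO against 3.85, 3.42 and 3.46 in WT, a difference of 0.79 ± 0.21 (SE, n = 3 each; limma, adjusted p = 0.0312) or 1.73 times the WT level. The groups did not overlap, yet the call is lost when any of 5 of the 6 libraries is left out, with an adjusted p of up to 0.125. In soleus Clybl was 4.67, 4.43 and 4.17 in mKO against 4.14, 3.55 and 3.27 in WT, a difference of 0.77 ± 0.21 that was not called (adjusted p = 0.0841). Of the EDL falls, those of Pdha1, Suclg1 and Idh3b were called without each library in turn. Those of Idh3g and Mdh2 lost their call in every such refit, Mdh1 in 2 and Dlat in 3.

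In soleus none of the 30 genes was called in the ERRalpha class, where 0.71% of all genes tested were (95 called; 1442 at an unadjusted p under 0.05). The median was 0.01 over the list and -0.02 over all genes. Pdhx came nearest, at 5.49, 5.45 and 5.50 in mKO against 5.315, 4.996 and 4.944 in WT, a difference of 0.39 ± 0.10 (SE, n = 3 each; limma, adjusted p = 0.0603). Without soleus ERRalpha WT replicate 1, 3 of the 30 genes were called (73 over all genes), with Pdhx at 0.51, Got1 at 0.49 and Clybl at 1.01. The difference between the muscles' ERRalpha changes was called for 0 of 30 genes and for 0.0151% of all genes tested (2 called; 965 at an unadjusted p under 0.05).

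With ERRbeta and ERRgamma deleted, Idh2 fell in both muscles, alone among the 30 genes in EDL and with 4 others in soleus. In EDL, Idh2 was 4.526, 4.788 and 4.997 in dmKO against 6.00, 6.14 and 5.48 in WT, a difference of -1.10 ± 0.20 (SE, n = 3 each; limma, adjusted p = 0.00609) or 0.466 of the WT level. It was the only one of the 30 called, against 0.218% of all genes tested, with a median of -0.06 over the list and 0.03 over all genes. The groups did not overlap, but without dmKO replicate 1 or WT replicate 2 the adjusted p was 0.0593 and 0.0807. The summed linear signal of slow-fibre markers was also lower there, at 39.1 to 57.8 in dmKO and 127 to 134 in WT. Of these markers 2 of 8 were called, Myl2 by -4.21 and Myl3 by -2.67. In EDL of the ERRalpha-ERRgamma class, where Idh2 fell too, that sum was 102 to 238 in dmKO and 50.2 to 152 in WT. Idh2 also had the list's largest excess of soleus over EDL in WT mice, and the part of the slow-fibre markers in its fall was not tested.

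In soleus, Idh2 was 6.99, 7.60 and 7.47 in dmKO against 8.65, 8.67 and 8.35 in WT, a difference of -1.20 ± 0.20 (SE, n = 3 each; limma, adjusted p = 0.000298). No slow-fibre marker was called there, but the summed fast-fibre signal was 18000 to 19200 in dmKO and 13000 to 17600 in WT, without overlap (1 of 10 called higher), and its part in the fall was not tested. Suclg2, the GTP-forming succinyl-CoA ligase subunit, was 3.99, 4.42 and 4.23 in dmKO against 4.84, 4.75 and 4.74 in WT and fell by 0.56 ± 0.098. Mdh1 was 8.55, 8.94 and 8.90 in dmKO against 9.09, 9.23 and 9.17 in WT and fell by 0.37 ± 0.097. In these genes too every dmKO library lay under every WT library, and dmKO replicate 1 was the lowest each time. Dlst fell by 0.32 and Pdha1 by 0.28. Their calls are lost in 4 and 2 of 6 refits without 1 library, and that of Mdh1 in 3. There were 5 falls and no rise among the 30, against 6.71% of all genes tested. The median was -0.16 over the list and 0.05 over all genes.

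A soleus dmKO library of this class stood apart in leukocyte genes: the summed linear signal of that list was 233 in replicate 1, 21.4 in replicate 2 and 62.1 in replicate 3, against 16.4, 58.0 and 21.2 in WT, with 0 of 6 tested markers called. Without dmKO replicate 1, 2 of the 30 genes were called, with 396 called over all genes (898 in the fit of all libraries). Without dmKO replicate 2, 13 were, with 2139 over all genes (the further 8 being Dld, Cs, Idh3b, Idh3g, Ogdh, Suclg1, Me3 and D2hgdh). Idh2 and Suclg2 were called without each library in turn, with adjusted p of up to 0.00505 and 0.00945. The ERRbeta-ERRgamma changes did not differ between muscles by the test for any of the 30, against 0.21% of all genes tested (28 called; 1579 at an unadjusted p under 0.05). For Idh2 the difference was -0.10 ± 0.28.

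Isoform pairs were compared as log2 ratios within a library, so that a shared shift of both genes cancels. The pairs Cs with Acly and Idh2 with Idh3a are distinct enzymes, not isoforms, and were read the same way. The unit before the log is not given, so only changes in a ratio are read, not which gene of a pair is more abundant. Over the 3 classes together, 10 pairs were tested per muscle by an exact permutation test of the labels within classes (two-sided, Benjamini-Hochberg over the 10). In EDL 6 of 10 ratios differed and in soleus 3 of 10.

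The malate dehydrogenase ratio Mdh2 to Mdh1 was higher in knockouts in both muscles, by 0.24 in EDL and 0.24 in soleus (exact permutation test, adjusted p = 0.0025 and 0.005). In the ERRalpha-ERRgamma class it was 0.80 ± 0.075 in EDL dmKO and 0.40 ± 0.084 in WT (SD, n = 3 each), and in soleus 0.03 ± 0.071 in dmKO and -0.38 ± 0.13 in WT, so the cytosolic form fell by more in both muscles. Changes were smaller in the ERRbeta-ERRgamma class, at 0.15 in EDL and 0.19 in soleus, without overlap. In the ERRalpha class they were 0.15 in EDL and 0.115 in soleus, with overlapping groups in both muscles. The aminotransferase ratio Got2 to Got1 changed in EDL knockouts, by -0.20 (adjusted p = 0.0125), where the ERRalpha class gave -0.41 ± 0.067 in mKO and -0.07 ± 0.016 in WT, the ERRalpha-ERRgamma class -0.39 ± 0.067 in dmKO and -0.09 ± 0.062 in WT, and the ERRbeta-ERRgamma class overlapping groups. In soleus it was not called (adjusted p = 0.504). There the change, knockout minus WT, was -0.25 ± 0.12 in the ERRalpha class (SE, n = 3 each), with groups that did not overlap. It was 0.08 ± 0.18 in the ERRbeta-ERRgamma class and -0.01 ± 0.091 in the ERRalpha-ERRgamma class, with overlapping groups in both.

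Isocitrate dehydrogenase ratios had unequal values among the classes, and that inequality was not tested. Idh2 to Idh3a, mitochondrial NADP-dependent against NAD-dependent, changed in knockouts by -0.76 in EDL and -0.57 in soleus (exact permutation test, adjusted p = 0.0025 and 0.00917; the EDL raw p of 0.00025 is the smallest the test can give). The ERRbeta-ERRgamma class changed by -1.19 ± 0.24 in EDL and -1.20 ± 0.22 in soleus (SE, n = 3 each), the ERRalpha-ERRgamma class by -0.72 ± 0.27 and -0.46 ± 0.20, and the ERRalpha class by -0.35 ± 0.13 and -0.06 ± 0.12. Of these 6 pairs of groups those of soleus ERRalpha overlapped, and the other 5 did not. Idh2 to Idh1, mitochondrial against cytosolic, changed in EDL knockouts by -0.70 (adjusted p = 0.0262), with -1.58 ± 0.14 in the ERRalpha-ERRgamma class, -0.88 ± 0.23 in the ERRbeta-ERRgamma class and 0.35 ± 0.21 in the ERRalpha class. In soleus it was not called (-0.29, adjusted p = 0.344), with -0.61 ± 0.38, -0.84 ± 0.32 and 0.59 ± 0.22 in the same order of classes.

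Among malic enzymes, Me3 to Me2 changed in EDL knockouts by -0.88 and Me3 to Me1 by -0.56 (exact permutation test, adjusted p = 0.0025 and 0.0125), and in soleus the values were -0.85 and -0.70 (adjusted p = 0.0555 for both). With a pseudocount of 1, Me3 to Me2 changed by -0.49 in EDL (adjusted p = 0.0025) and -0.54 in soleus (adjusted p = 0.0488), and Me3 to Me1 by -0.44 in soleus. The ERRalpha-ERRgamma class held the largest changes, with Me3 to Me1 at -1.36 ± 0.22 in EDL and -1.95 ± 0.20 in soleus (SE, n = 3 each). For Me3 to Me2 in soleus the classes differed in sign. It changed by 0.44 ± 0.16 in the ERRalpha class, -0.915 ± 0.51 in the ERRbeta-ERRgamma class and -2.06 ± 0.29 in the ERRalpha-ERRgamma class. Of these only the ERRbeta-ERRgamma groups overlapped. Sucla2 to Suclg2, the ATP-forming against the GTP-forming ligase subunit, was higher in soleus knockouts by 0.30 (adjusted p = 0.005), with the ERRbeta-ERRgamma class at 0.51 ± 0.13, the ERRalpha-ERRgamma class at 0.26 ± 0.064 and the ERRalpha class at 0.13 ± 0.051. Within 1 class an exact test of 3 against 3 cannot go below p = 0.1, so single classes are given as values. Me2 to Me1 and Cs to Acly were not called in either muscle.

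**Figure D4:**
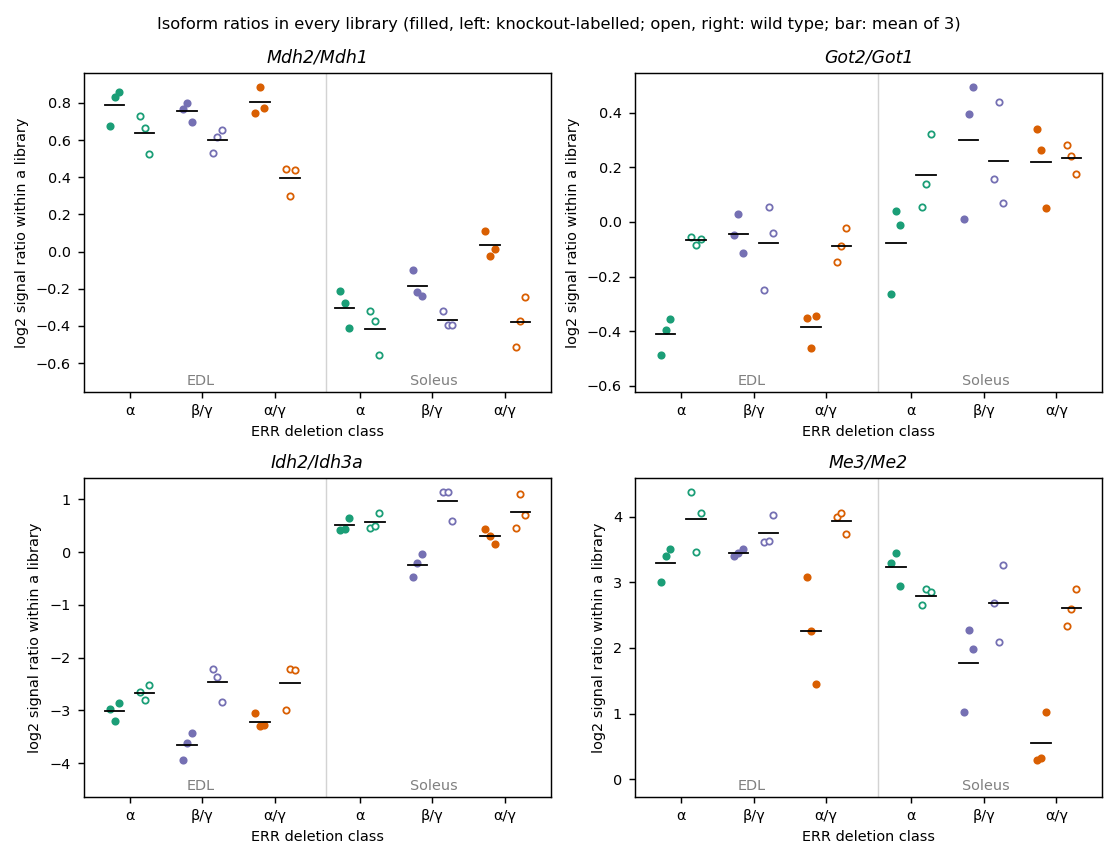
Log2 ratio within each library (vertical axis) for Mdh2 to Mdh1, Got2 to Got1, Idh2 to Idh3a and Me3 to Me2, 1 point per library, knockout libraries filled and left of their open WT libraries, by muscle and class. Mdh2 to Mdh1 averages 0.80 in EDL ERRalpha-ERRgamma dmKO and 0.40 in its WT.

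Without any deletion the 2 muscles differed in the levels of several isoforms. Of the 30 genes 12 were higher and 9 lower in WT soleus than in WT EDL (9 libraries each, some from the same animals), where 54.4% of all genes tested were called, so the count itself is near the background. The median was 0.05 over the list and 0.08 over all genes. All 21 called genes had the same direction in all 3 classes of WT littermates. The difference tested is the mean of these same 3 class differences, so their shared direction is no separate test.

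Idh2 differed most. Its lowest, median and highest values were 7.92, 8.27 and 8.67 in WT soleus and 5.17, 5.75 and 6.14 in WT EDL (n = 9 each), a difference of 2.62 ± 0.11 (SE; limma, adjusted p = 1.47e-17), or 6.14 times the EDL level. Mdh1 had 9.06, 9.13 and 9.23 in soleus and 8.04, 8.28 and 8.42 in EDL and was higher by 0.89 ± 0.056. In both genes every soleus library lay above every EDL library. Acly, Me2 and Idh1 were higher in soleus by 0.64, 0.63 and 0.57, and Suclg2 by 0.44. Smaller rises were called in Got2, Dlst, Aco1, Ogdh, Dlat and Pdhb, from 0.10 to 0.28. Pdhb lost its call in 3 of 18 refits without 1 library, and both Pdhb and Dlat lost theirs when libraries were recentred to 1 median.

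Me1 was the gene most biased to EDL. It had 4.50, 4.65 and 5.11 in WT soleus and 5.62, 6.03 and 6.29 in WT EDL (lowest, median, highest; n = 9 each), a difference of -1.33 ± 0.079 (SE; limma, adjusted p = 1.66e-14). Idh3a had 7.45, 7.51 and 7.81 in soleus and 8.15, 8.23 and 8.50 in EDL and differed by -0.68 ± 0.056, and Me3 had 1.499, 1.857 and 2.167 in soleus and 2.28, 2.46 and 2.61 in EDL and differed by -0.56 ± 0.076. These 3 genes also separated the muscles without overlap, as did Suclg1 at -0.26. Pcx, Sucla2, D2hgdh, Idh3b and Idh3g were lower in soleus too, with differences from -0.39 to -0.13. The call of D2hgdh is lost in 14 of 18 refits without 1 library (adjusted p of up to 0.103). Cs, Fh1, Mdh2, Got1, Glud1, Clybl, Pdha1, Pdhx and Dld were not called, with differences from -0.04 to 0.09.

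**Figure D5:**
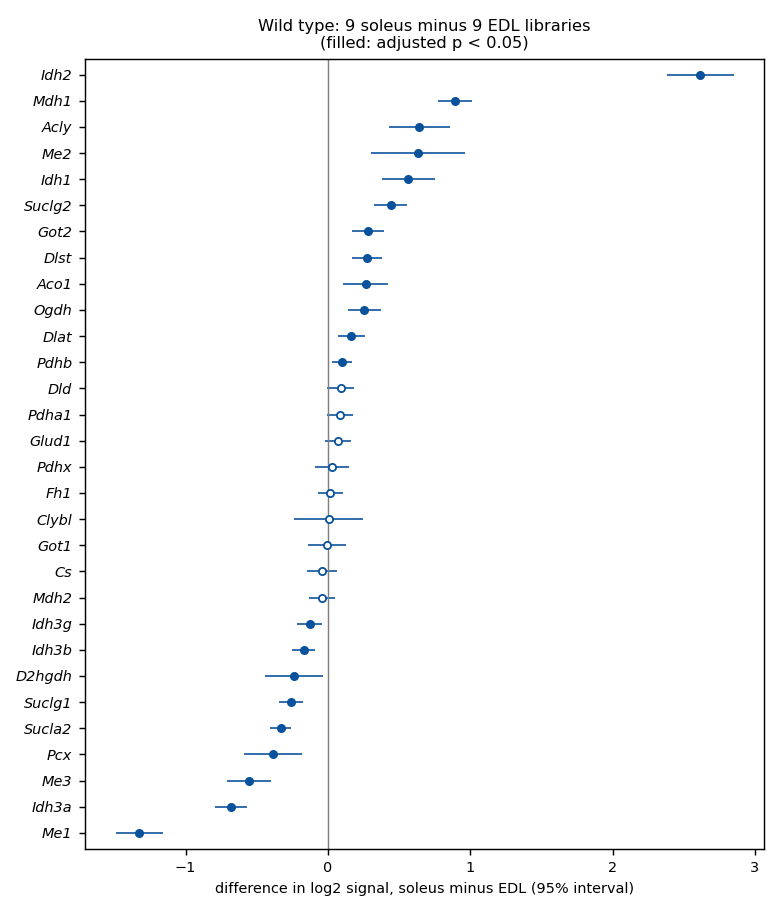
Difference in log2 signal, WT soleus minus WT EDL, for the 30 genes in order of size, with 95% confidence intervals (9 libraries per muscle). The order runs from Idh2 at 2.62 to Me1 at -1.33.

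Ratios of the pairs differed as well. In WT mice Idh2 to Idh3a differed by 3.30 and Mdh2 to Mdh1 by -0.93, soleus minus EDL (exact permutation test over all 18 WT libraries, adjusted p = 6.86e-05 for Mdh2 to Mdh1). That test takes no account of class or of animals that gave both muscles. Cs to Acly differed by -0.68 (adjusted p = 0.00101) and Got2 to Got1 by 0.29 (adjusted p = 0.000118).

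Enzymes of the same pathway outside the 30 were read in the same fit. The 4 succinate dehydrogenase genes fell in both muscles of the ERRalpha-ERRgamma class. In EDL the differences, dmKO minus WT, were -1.61 for Sdha, -2.07 for Sdhb, -1.42 for Sdhc and -1.68 for Sdhd. In soleus they were -0.82, -1.05, -0.34 and -0.30 in the same order. In the ERRbeta-ERRgamma class Sdhb alone was called, in soleus, at -0.51 ± 0.079 (SE; limma, adjusted p = 0.000204), and none of the 4 was called in the ERRalpha class.

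Of 35 further cycle-linked genes tested, 21 fell and none rose in EDL ERRalpha-ERRgamma dmKO (18.1% of all genes tested were called), and 19 fell and 1 rose in soleus (12.7%). In soleus ERRbeta-ERRgamma dmKO 13 fell (6.71% of all genes tested were called), led by Nnt, the mitochondrial transhydrogenase, at -1.20 ± 0.16 (SE; limma, adjusted p = 3.75e-05), Acss1 at -1.09, Dhtkd1 at -1.08 and Acss2 at -1.01. In EDL of that class 3 fell (0.218% of all genes tested were called), Nnt at -0.96, Ldhb at -0.84 and Acss2 at -0.76. Ldhb, the lactate dehydrogenase subunit of oxidative tissue, rose by 0.85 in EDL ERRalpha mKO, where Glrx5 fell by 0.40 (3.28% of all genes tested were called). No gene of the list was called in soleus ERRalpha mKO (0.71% of all genes tested were).

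Of 10 carriers of pyruvate, citrate, malate, aspartate or glutamate tested, 5 fell in EDL ERRalpha-ERRgamma dmKO. The shares called over all genes, 18.1% in EDL and 12.7% in soleus of that class and 6.71% in soleus ERRbeta-ERRgamma, are the background of these counts. Slc25a11, the malate and 2-oxoglutarate carrier, fell by 1.36, Slc25a12, an aspartate-glutamate carrier, by 1.28, and the pyruvate carrier genes Mpc2 and Mpc1 by 1.19 and 0.84. In soleus 6 fell, led by Slc25a13, the other aspartate-glutamate carrier, at -2.04 ± 0.56 (SE; limma, adjusted p = 0.0135). Of 7 genes that phosphorylate or dephosphorylate pyruvate dehydrogenase, 2 fell in EDL (Pdpr by 1.02 and Pdk2 by 0.88) and 3 in soleus (Pdp2 by 1.11, Pdp1 by 1.07 and Pdpr by 0.87) in ERRalpha-ERRgamma dmKO. In soleus ERRbeta-ERRgamma dmKO 2 carriers and 3 of the pyruvate dehydrogenase regulators fell. Of 7 relatives of Clybl and D2hgdh in 2-hydroxyglutarate and methylmalonate metabolism, 4 fell in each muscle of the ERRalpha-ERRgamma class and 3 in soleus of the ERRbeta-ERRgamma class. Of 11 lipogenic genes, the company of Acly and Me1, 1 fell and 1 rose in EDL of the ERRalpha-ERRgamma class, near the 18.1% over all genes, and 1 fell and 2 rose in soleus.

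Exons of 6 of the 30 genes overlap a gene on the opposite strand in the GRCm38 annotation: Pdha1 with Map3k15 over 603 bases, Me3 with A230065N10Rik over 569, Got2 with Gm45760 over 434, Mdh1 with Wdpcp over 52, Me1 with A330041J22Rik over 30 and Idh3b with Nop56 over 5. The library kit keeps strand, per the labels' protocols, but whether the counting used it is not given in the sources used here, so reads of such pairs cannot be told apart.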

How the data were processed

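Whole-muscle RNA was sequenced from 36 libraries in 12 groups of 3. The authors deposited log2 signals, logged and quantile normalized per the name of the table, for 45802 gene rows, of which 27904 held no value. Partek 6.6 and 2 genome builds, GRCm38.p6 and mm10, are named in the submitters' processing notes. Not given in the sources used here are the aligner, the way reads were counted and the pre-log unit. An empty cell was kept as missing. The 27 symbols turned into dates were left out. Genes were kept where their mean, with missing cells at the lowest value (-8.21), exceeded the 25th percentile, leaving 13404 of 17873.

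Each difference comes from limma 3.58.1 (R 4.3.3), fitted to all 36 libraries at once with 1 mean per group and a trend of variance on intensity. P-values were adjusted by Benjamini-Hochberg over all kept genes within a contrast. No pseudocount was added. Fold values are 2 to the power of a difference. Ratios of the pairs were tested in Python 3.11.15 by exact permutation, within classes for knockout against WT and over all 18 WT libraries for soleus against EDL. The fit and the ratio test were tested on simulated data.

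All 30 genes are reported. Each library's values are given for up to 4 called genes of largest change per comparison and for genes of isoform pairs. The genes, companion lists and marker lists were chosen with earlier results of these data known. EDL columns of ERRalpha mice lack the class letter and were placed through an animal number shared with soleus columns. Columns lack the labels' replicate numbers, and the numbers used here follow column order and are names only. Of 14 animals with both muscles, 7 had deviations correlated over 0.1 between muscles (range -0.07 to 0.32). The main fit took no account of this, and the animal entered as a block in an alternative only. Alternatives were other filters, missing values at the lowest value, a pseudocount of 1, recentring, only the libraries compared, no intensity trend, the animal as a block, and each library left out. Proteins of the isoforms were not printed, and 1 gene of the companion lists, with its isoform ratio, is not reported here.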

Additional observations from a re-analysis of the deposited data

Results flagged for a closer look

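The change in ERRalpha-ERRgamma dmKO against WT differed between soleus and EDL, by limma's test of that difference, for 19 of the 30 genes. Soleus minus EDL, the difference was 0.90 for Pdha1, 0.83 for Pdhb, 0.83 for Dlat, 0.68 for Pdhx and 0.74 for Dld, the 5 pyruvate dehydrogenase genes. In the cycle it was 0.50 for Cs, 0.56 for Idh3a, 1.01 for Idh3b, 0.56 for Idh3g, 0.53 for Ogdh, 0.47 for Dlst, 0.36 for Sucla2, 1.04 for Fh1 and 0.82 for Mdh2. In the shuttle it was 1.51 for Got2, 0.81 for Mdh1 and 1.22 for Got1. It was 2.32 for Clybl and -0.87 for Me3. Without 1 library at a time, Dlst lost this call in 10 of 12 refits, Ogdh in 8, Sucla2 in 7, and Cs and Idh3a in 5 each.

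Of 60 groups of 9 WT libraries (each gene in each muscle), 2 held a library far from the others for its group's range, where chance flags about 1 in 20. Idh3a was 8.50 in EDL ERRbeta-ERRgamma WT replicate 2, against a median of 8.23. Me1 was 5.11 in soleus ERRbeta-ERRgamma WT replicate 1, against a median of 4.65.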

How the results depend on the processing

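No difference changed sign among called results. With only the libraries compared in the fit, genes called among the 30 were 4 in EDL ERRalpha (8 in the fit of all libraries), 0 in EDL ERRbeta-ERRgamma (1), 0 in soleus ERRbeta-ERRgamma (5) and 4 for ERRalpha-ERRgamma minus ERRbeta-ERRgamma in soleus (13). Over all genes the same fit called 201 in EDL ERRalpha, 4 in EDL ERRbeta-ERRgamma and 4 in soleus ERRbeta-ERRgamma (436, 29 and 898 with all libraries). With a pseudocount of 1, 1 was called in soleus ERRalpha, Pdhx (0.38, adjusted p = 0.0487 by limma), and 0 without it. Over all genes 123 were called there, against 95. With that pseudocount Me3 to Me2 in soleus changed by -0.54 (exact permutation test, adjusted p = 0.0488). The cause of each was not tested, beyond the fewer libraries behind the spread in the first.

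Leaving out 1 library at a time, the count of called genes was 3 to 6 in EDL ERRalpha, 0 to 1 in EDL ERRbeta-ERRgamma, 23 to 25 in EDL ERRalpha-ERRgamma, 0 to 3 in soleus ERRalpha, 2 to 13 in soleus ERRbeta-ERRgamma, 22 to 24 in soleus ERRalpha-ERRgamma and 19 to 22 between WT muscles. Soleus against EDL it was 0 to 2 for ERRbeta-ERRgamma and 14 to 21 for ERRalpha-ERRgamma. Between classes it was 23, 22 to 23, 20 to 22 and 10 to 14. In EDL ERRalpha it was 3 without WT replicate 3, 4 without any 1 mKO replicate and 5 without WT replicate 2. Calls over all genes were 225 to 280 in those refits, against 436 with all libraries. In soleus ERRbeta-ERRgamma the count of called list genes was 2 without dmKO replicate 1 or WT replicate 3. Over all genes 396 and 440 were called in these refits and 2139 without dmKO replicate 2, against 898. For ERRbeta-ERRgamma, soleus against EDL, the 2 came with 521 over all genes, against 28. Ratios whose call changed ran from -0.31 to -0.19 for Cs to Acly in EDL, 0.18 to 0.44 for Me2 to Me1 in EDL, 0.055 to 0.104 for Sucla2 to Suclg2 in EDL and -0.74 to -0.64 for Me3 to Me1 in soleus.

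The animal as a replicate block (consensus correlation 0.13) gave 7 in EDL ERRalpha, where Mdh2 lost its call (adjusted p = 0.0507), 24 in each muscle of ERRalpha-ERRgamma, and in soleus ERRbeta-ERRgamma 5; no count moved by over 1.5 times. Recentring gave 24 in each ERRalpha-ERRgamma comparison, 16 between its muscles (15 higher) and 19 between WT muscles (10 higher).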
